A study of Mus musculus with 38 samples.

Results

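The mouse genes named Zfp followed by a number encode mainly zinc finger proteins, and their RNA levels were described across 5 groups of E14 mouse embryonic stem cells. Members were the genes of chromosomes 1 to 19 with such a name, other than Zfp42, that reached 0.5 RPM (a gene's reads scaled to the reads of its library, -1.0 on the deposited log2 scale) in at least 3 of 14 libraries. Of 25965 rows in the table, 341 carry a Zfp and number name, 7 of them on chromosome X. On chromosomes 1 to 19, 333 such rows remained after Zfp42 was set aside, and 312 rows of 311 genes met the level threshold, because Zfp319 is listed in 2 rows. The same threshold left 14980 rows of all kinds for testing, 14668 of them no members.

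E14 is a male (XY) line of strain 129/Ola, grown feeder-free on gelatin, and all groups share this line, LIF and a first day in serum with LIF (S/L). The next day the cells stayed in S/L or were moved to serum-free N2B27 with LIF and 1 µM of a MEK inhibitor (MEKi/L, spelled PD03259010 in the labels), 3 µM of the GSK3 inhibitor CHIR99021 (GSK3i/L) or both inhibitors (2i/L). Cells were passaged every 2 days and taken at 8 days, with 3 libraries for each medium, or at 24 days in GSK3i/L, with 2 libraries numbered 2 and 3. Poly(A) RNA was read as single 50-base ends, and the 24 bisulfite libraries of the series were not used here. The cells come from 1 line, and the submitters call the libraries biological replicates without saying that they are separate cultures, so each p-value measures the spread of these libraries alone, which may be technical. S/L differs from the 3 other media in serum and base medium as well as in inhibitors. In bulk RNA, fewer cells of a type and less RNA per cell cannot be told apart.

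Most Zfp genes encode C2H2 zinc finger proteins, in which arrays of small zinc-bound loops read DNA sequence. A large part of the family carries a KRAB box, which recruits TRIM28 and, through it, the H3K9 methyltransferase SETDB1, so that retroelements and imprinted loci stay silent in embryonic stem cells. KRAB zinc finger genes arose by repeated local duplication and lie in dense clusters of near-identical copies. Other members without a KRAB box act as cofactors in differentiation, bind RNA, or serve general functions. The name, not the protein, defined the members, and a few such as Zfp36 (tristetraprolin) carry another type of finger and bind RNA.

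The media moved many members, but no larger share of them than of all genes. Between 2i/L and S/L, 105 members were higher and 54 lower, against 39.1% and 24.4% of all tested genes. The transcription cofactor Zfp423 fell most in 2i/L, and Zfp516, Zfp521, Zfp292 and Zfp217 rose. Zfp503 was read almost solely in GSK3i/L at 8 days. The median change in 2i/L was 0.50 on the log2 scale for members in the clusters of chromosome 7 and -0.46 for those in the clusters of chromosomes 8, 13 and 17, and the second of these turned to 0.34 when the balance of long and short transcripts in each library was added to the fit.

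Members covered a wide range of levels. 288 rows were at 0.5 RPM or more in all 14 libraries, 5 in 3 to 5 libraries, and each library held between 299 and 309 members at that level. The median of the members' mean levels was 12.85 RPM and that of the other tested genes 19.67 RPM; RPM is not divided by transcript length, so levels are compared here within a gene. 181 members averaged 10 RPM or more and 8 averaged 100 RPM or more, and together the members took 0.729% to 0.938% of the RPM in a library. Just inside the threshold, the third-highest library of Zfp319 (1 of its rows), Zfp748 and Zfp429 stood at 0.554, 0.559 and 0.603 RPM. Just outside, that of Zfp458, Zfp964 and Zfp352 stood at 0.467, 0.456 and 0.435 RPM. Of the 21 rows below the threshold 7 had no read in any library, and the highest single value among them was 1.22 RPM. The first row of Zfp319 and Zfp503 passed only through libraries of 1 group, and 30 members overlap another tested gene, where reads cannot be assigned with certainty because the strand setting of the counting is not given in the sources used here.

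Several properties of the libraries bear on these values. The 8 columns of the 24-day group and of both media with MEK inhibitor hold plain log2 RPM (10550000 to 15760000 reads), with genes without reads entered at 0.9 read. The 6 columns of the serum group and of 8-day GSK3i/L follow 1 common distribution, so their depth is unknown. Only 2i/L against MEKi/L and GSK3i/L against S/L therefore compare columns of 1 kind. A score of 40 long minus 40 short transcripts stood between -0.19 and 0.23 in the first MEKi/L, the first GSK3i/L and the 3 2i/L libraries, and between -4.11 and -1.86 in the other 9. Summed markers of embryonic stem cells lay between 5711 and 7514 RPM in every library. Single markers moved within that sum. Of 9 tested, 4 were higher and 4 lower in 2i/L than in S/L by limma, with a median log2 fold change of -0.34 against 0.28 over all tested genes. Replicates of a group correlated at r = 0.890 to 0.985 over the members.

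Promoter sequence is shown for 4 members that moved far in 2i/L against S/L and whose window lies upstream of the annotated gene, chosen after their values were seen: 1 pair that fell (Zfp867, Zfp423) and 1 pair from the same cluster of chromosome 7 that rose (Zfp30, Zfp382). Each run gives the 250 bases before the RefSeq start in GRCm38.p6, read 5′ to 3′ on the gene's strand, with CpG dinucleotides in capitals. Zfp867 lies at chr11:59472475-59472724 on the minus strand, Zfp423 at chr8:87959596-87959845 on the minus strand, Zfp30 at chr7:29783718-29783967 on the plus strand and Zfp382 at chr7:30121682-30121931 on the plus strand.
Zfp867: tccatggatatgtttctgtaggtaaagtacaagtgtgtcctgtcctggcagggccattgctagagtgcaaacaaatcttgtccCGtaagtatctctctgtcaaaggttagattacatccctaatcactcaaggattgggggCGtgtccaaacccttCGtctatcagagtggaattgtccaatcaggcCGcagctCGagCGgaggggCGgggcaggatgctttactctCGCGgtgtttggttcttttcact
Zfp423: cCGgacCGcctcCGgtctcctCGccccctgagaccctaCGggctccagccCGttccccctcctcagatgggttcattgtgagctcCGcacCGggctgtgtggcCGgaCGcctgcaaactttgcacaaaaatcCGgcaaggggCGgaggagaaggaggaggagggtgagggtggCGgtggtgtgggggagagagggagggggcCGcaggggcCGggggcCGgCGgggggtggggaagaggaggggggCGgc
Zfp30: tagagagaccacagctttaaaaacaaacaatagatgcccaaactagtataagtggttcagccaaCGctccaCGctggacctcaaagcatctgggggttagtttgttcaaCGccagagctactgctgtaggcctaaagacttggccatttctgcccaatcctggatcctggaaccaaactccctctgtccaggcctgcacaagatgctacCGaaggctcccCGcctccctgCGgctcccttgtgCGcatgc
Zfp382: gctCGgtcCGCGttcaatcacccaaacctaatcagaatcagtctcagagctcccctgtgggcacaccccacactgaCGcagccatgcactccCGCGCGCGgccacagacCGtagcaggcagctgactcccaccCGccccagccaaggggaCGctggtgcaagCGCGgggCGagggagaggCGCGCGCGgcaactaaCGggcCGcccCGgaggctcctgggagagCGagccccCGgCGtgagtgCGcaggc
With 50 bases after the start added, these windows hold 10, 21, 9 and 32 CpG in the same order.

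Zfp867 and Zfp423, the first 2 of these genes, were high in serum and had their lowest group mean in 2i/L. Zfp867 (ENSMUSG00000054519, chr11:59461197-59472474 in GRCm38, minus strand) read 85.3, 55.5 and 70.03 RPM in S/L, 6.47, 23.5 and 24.7 in MEKi/L, 6.85, 16.5 and 40.7 in GSK3i/L at 8 days, 7.24, 8.62 and 9.65 in 2i/L and 33.7 and 28.6 in GSK3i/L at 24 days. Every S/L library stood above every other, and the first MEKi/L and GSK3i/L libraries, at 6.47 and 6.85 RPM, lay below every 2i/L library. Its log2 fold change was -3.03 ± 0.55 (SE, adjusted p = 0.00034) in 2i/L against S/L, -2.15 ± 0.55 (SE, adjusted p = 0.007) in MEKi/L and -2.06 ± 0.55 (SE, adjusted p = 0.013) in GSK3i/L, by limma over all tested genes. The last call was lost without the first S/L or the first GSK3i/L library (adjusted p = 0.0523 and 0.0522 by limma).

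Zfp423 (ENSMUSG00000045333, chr8:87661810-87959595 in GRCm38, minus strand) is a cofactor of BMP-activated SMAD proteins and EBF factors that commits cells to the fat lineage. It read 19.1, 13.6 and 21.9 RPM in S/L, 6.35, 2.95 and 1.90 in MEKi/L, 19.7, 4.44 and 5.92 in GSK3i/L at 8 days, 0.686, 0.711 and 0.661 in 2i/L and 3.49 and 3.70 in GSK3i/L at 24 days. All 3 2i/L libraries lay below every other library, and GSK3i/L overlapped S/L through its first library. The log2 fold change of 2i/L was -4.70 ± 0.49 (SE, adjusted p = 3.8e-06) against S/L, -2.26 ± 0.49 (SE, adjusted p = 0.0086) against MEKi/L and -3.55 ± 0.49 (SE, adjusted p = 0.00016) against GSK3i/L by limma. MEKi/L against S/L was -2.44 ± 0.49 (SE, adjusted p = 0.0016), and GSK3i/L did not pass against S/L, at -1.15 ± 0.49 (SE, adjusted p = 0.087), by limma. Without its first library GSK3i/L passed too, at -1.80 (adjusted p = 0.0067 by limma).

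Zfp30 and Zfp382 moved the other way from S/L. Zfp30 read 2.48, 3.77 and 4.04 RPM in S/L, 6.73, 7.70 and 6.44 in MEKi/L, 5.69, 11.2 and 8.15 in GSK3i/L at 8 days, 10.8, 15.1 and 12.4 in 2i/L and 9.87 and 11.1 at 24 days. Every serum-free library was above every S/L library. It rose by 1.92 ± 0.26 (SE, adjusted p = 3.9e-05) in 2i/L and 1.26 ± 0.26 (SE, adjusted p = 0.0031) in GSK3i/L on the log2 scale by limma. Zfp382 read 1.98, 1.02 and 1.39 RPM in S/L against 3.55, 2.88 and 3.03 in MEKi/L, 4.01, 3.00 and 3.87 in GSK3i/L and 3.51, 3.64 and 3.11 in 2i/L. Its changes of 1.27 ± 0.27 (SE, adjusted p = 0.0012), 1.16 ± 0.27 (SE, adjusted p = 0.0046) and 1.35 ± 0.27 (SE, adjusted p = 0.0026) in 2i/L, MEKi/L and GSK3i/L all passed limma's test, and the 8-day serum-free groups overlapped each other.

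Among 15 genes listed for imprint maintenance and retroelement silencing, 4 were higher and 4 lower in 2i/L than in S/L (26.7% each, against 39.1% and 24.4% of all tested genes), with a median log2 fold change of 0.17 against 0.28 over all tested genes. MEKi/L had 5 higher (33.3%) and 3 lower (20.0%) against S/L, against 26.1% and 14.7% of all tested genes. By limma 3 were higher without the third MEKi/L library, against 24.1% of all genes. Without the first S/L or first MEKi/L library 0 or 1 were lower, against 9.55% and 10.1% of all genes. GSK3i/L had 1 higher (6.67%) and 5 lower (33.3%), against 16.8% and 14.4% of all tested genes. It had 3 lower without the first or the third S/L or the first or second GSK3i/L library. The lower shares of all genes were then 7.88%, 10.4%, 8.87% and 8.79%. All of the role lists used here were drawn up with earlier results of these data known.

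Zfp57 and Zfp445 are the KRAB proteins that keep methylation at imprinting control regions. Zfp57 read 309, 277 and 357 RPM in S/L, 477, 424 and 661 in MEKi/L, 389, 309 and 431 in GSK3i/L, 430, 319 and 316 in 2i/L and 522 and 639 at 24 days. The 2i/L and S/L libraries overlapped, with a log2 fold change of 0.17 ± 0.21 (SE, adjusted p = 0.51) by limma. MEKi/L was higher than S/L by 0.71 ± 0.21 (SE, adjusted p = 0.018), a call that limma no longer made without the first or the second S/L or the third MEKi/L library (adjusted p = 0.0503, 0.068 and 0.081). Zfp445 read 16.04, 16.9 and 20.2 RPM in S/L, 30.5, 22.9 and 34.3 in MEKi/L and 30.8, 32.3 and 37.2 in 2i/L, and neither of these media overlapped S/L. It rose by 0.92 ± 0.20 (SE, adjusted p = 0.0013) in 2i/L by limma.

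Zfp568 (ENSMUSG00000074221, chr7:29983955-30028282 in GRCm38, plus strand) silences the placental promoter of Igf2 and is a member of the largest chromosome 7 cluster. It read 91.8, 104 and 110.2 RPM in S/L, 269.6, 154 and 191 in MEKi/L, 147, 122 and 79.2 in GSK3i/L at 8 days, 212, 240.3 and 259 in 2i/L and 49.3 and 64.3 at 24 days. Both media with MEK inhibitor stood above S/L in every library, and the 24-day libraries were the lowest of the 14. The log2 fold change was 1.21 ± 0.24 (SE, adjusted p = 0.00068) in 2i/L and 0.97 ± 0.24 (SE, adjusted p = 0.0062) in MEKi/L against S/L by limma. Zfp74, its neighbour, read 11.6, 12.5 and 15.5 RPM in S/L, 48.8, 31.4 and 33.4 in MEKi/L, 17.3, 12.2 and 13.9 in GSK3i/L, 30.8, 31.1 and 31.4 in 2i/L and 4.10 and 7.22 at 24 days. In Zfp568 only the first MEKi/L library, at 269.6 RPM, stood above 2i/L, and the others, at 154 and 191 RPM, lay below it. In Zfp74 the MEKi/L readings began at 31.4 RPM, where those of 2i/L ended. The 24-day libraries were the lowest in both genes, and for Zfp74 MEKi/L was 1.50 ± 0.23 (SE, adjusted p = 0.00022) above S/L by limma.

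Zfp809, which recognises the primer binding site of Moloney-type retroviruses, was highest in serum. It read 21.5, 21.4 and 19.2 RPM in S/L, 13.6, 12.2 and 14.9 in MEKi/L, 7.88, 8.45 and 12.4 in GSK3i/L, 11.6, 12.96 and 11.8 in 2i/L and 13.1 and 11.8 at 24 days, and no other library reached the S/L range. It fell by 1.14 ± 0.19 (SE, adjusted p = 0.00052) in GSK3i/L and by 0.77 ± 0.19 (SE, adjusted p = 0.0027) in 2i/L on the log2 scale by limma. Zfp932 represses endogenous retroviruses of the ERVK class, and Zfp930 is listed with it. Zfp932 read 47.98, 22.4 and 27.2 RPM in S/L and 8.84, 6.48 and 7.54 in 2i/L, a log2 fold change of -2.03 ± 0.42 (SE, adjusted p = 0.00095) by limma. Zfp930 read 42.9, 30.5 and 35.3 RPM in S/L and 10.7, 13.04 and 14.4 in 2i/L, a log2 fold change of -1.51 ± 0.39 (SE, adjusted p = 0.0041) by limma. In both genes the first MEKi/L and GSK3i/L libraries, at 7.62 and 7.74 RPM for Zfp932, were nearer to 2i/L than to their own replicates, as they are in the length score. With that score as a covariate Zfp930 turned to 0.04 in 2i/L.

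Zfp600 fell furthest of this list in 2i/L, and Zfp951 in GSK3i/L at 8 days. Zfp600, on chromosome 4, read 50.8, 23.7 and 22.4 RPM in S/L, 17.8, 23.96 and 27.6 in MEKi/L, 8.25, 9.94 and 17.6 in GSK3i/L and 7.01, 6.40 and 7.14 in 2i/L. MEKi/L overlapped S/L, and both media with GSK3 inhibitor lay below every S/L library: -2.13 ± 0.33 (SE, adjusted p = 0.00011) in 2i/L and -1.41 ± 0.33 (SE, adjusted p = 0.0068) in GSK3i/L by limma. Zfp951 read 6.08, 4.64 and 4.36 RPM in S/L, 5.58, 9.79 and 12.98 in MEKi/L, 0.734, 0.318 and 2.23 in GSK3i/L, 4.34, 2.85 and 3.97 in 2i/L and 0.760 and 0.176 at 24 days. GSK3i/L was -2.63 ± 0.63 (SE, adjusted p = 0.007) against S/L, and MEKi/L was 3.47 ± 0.63 (SE, adjusted p = 0.0012) above GSK3i/L, by limma. Both genes belong to families of close copies, so how the authors' counting split their reads is uncertain.

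Zfp459 rose in both single-inhibitor media, from 35.4, 19.9 and 20.6 RPM in S/L to 66.6, 42.5 and 58.7 in MEKi/L and 67.8, 37.1 and 69.3 in GSK3i/L. The log2 fold changes were 1.17 ± 0.28 (SE, adjusted p = 0.0048) and 1.19 ± 0.28 (SE, adjusted p = 0.0064) by limma. In 2i/L it read 46.2, 31.4 and 35.8 RPM and did not pass, at 0.61 ± 0.28 (SE, adjusted p = 0.069), but passed without the first S/L library (adjusted p = 0.018 by limma). Zfp708, which binds the retroelement RMER19B, passed in no comparison.

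**Figure D1:**
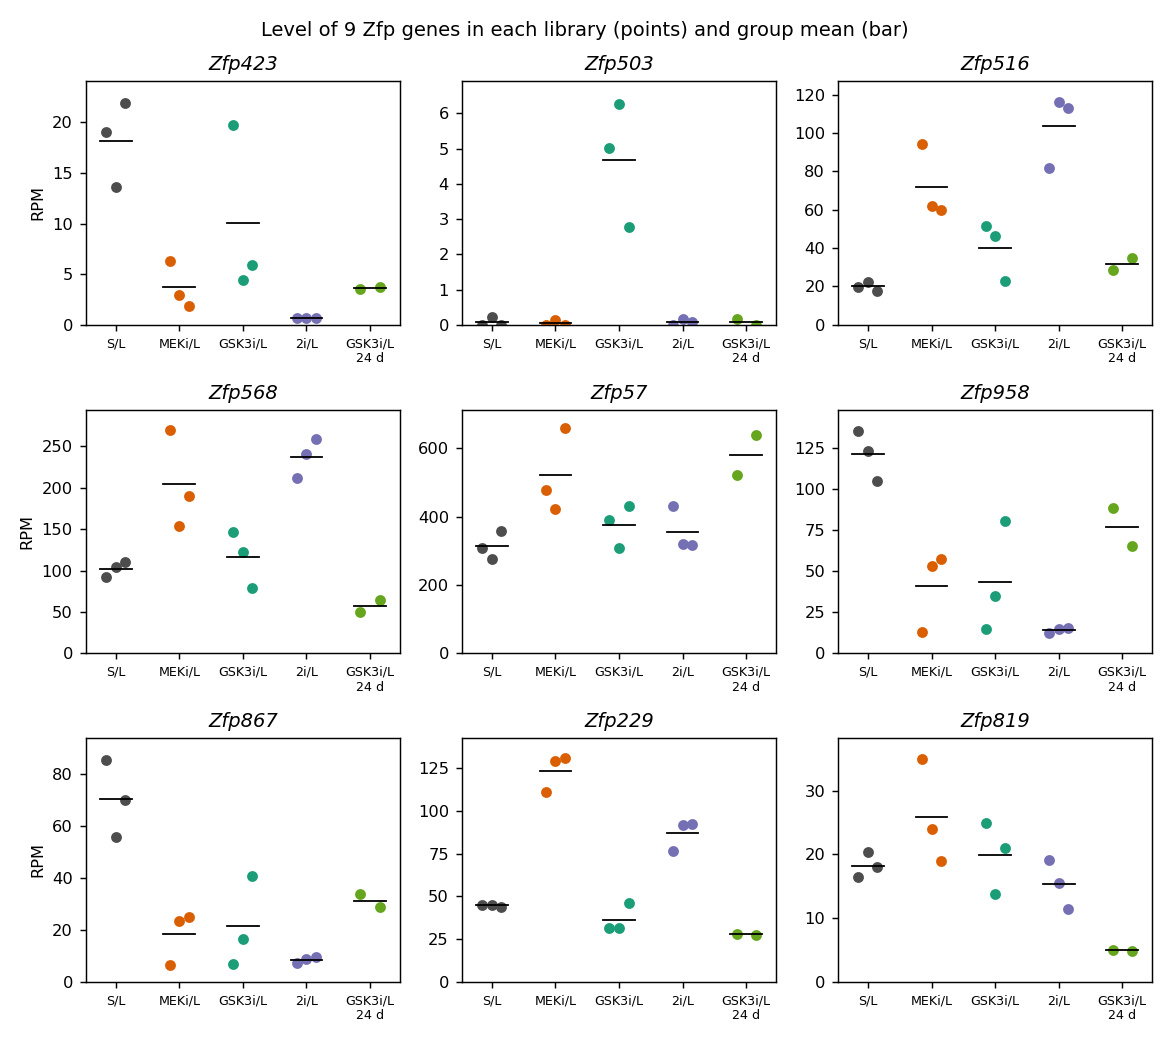
RPM (linear axis from 0) of 9 Zfp genes, with 1 point per library and a bar at the group mean for S/L, MEKi/L, GSK3i/L and 2i/L at 8 days and GSK3i/L at 24 days. By group mean Zfp423 and Zfp867 are highest in S/L and lowest in 2i/L. Zfp503 stands at 2.77 RPM or more in GSK3i/L at 8 days alone, and in Zfp958 and Zfp867 the first MEKi/L library lies nearest to 2i/L.

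Of 25 tested members listed for pluripotency and early development, 12 were higher (48%) and 3 lower (12%) in 2i/L than in S/L, against 39.1% and 24.4% of all tested genes, with medians of 0.67 and 0.28. The 3 that fell in 2i/L were Zfp423, Zfp467 and Zfp207. Zfp467 read 1.09, 0.306 and 1.09 RPM in S/L and 0.0762, 0.237 and 0.265 in 2i/L, the latter a few reads each, so no fold is given, and its call (adjusted p = 0.014) was lost without the first or the third S/L or the first 2i/L library (adjusted p = 0.06, 0.057 and 0.072 by limma).

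Zfp516, a coactivator of brown fat genes, rose in each serum-free medium at 8 days. It read 19.9, 22.4 and 17.8 RPM in S/L, 94.2, 61.95 and 59.9 in MEKi/L, 51.3, 46.5 and 22.8 in GSK3i/L, 81.6, 116 and 113 in 2i/L and 28.8 and 34.6 at 24 days. All serum-free libraries were above S/L. The log2 fold change was 2.36 ± 0.28 (SE, adjusted p = 1.0e-05) in 2i/L, 1.82 ± 0.28 (SE, adjusted p = 0.00018) in MEKi/L and 0.93 ± 0.28 (SE, adjusted p = 0.022) in GSK3i/L, and 2i/L exceeded GSK3i/L by 1.43 ± 0.28 (SE, adjusted p = 0.0019), by limma. The call in GSK3i/L was lost without the first or the third S/L or the first or second GSK3i/L library (adjusted p = 0.062, 0.071, 0.094 and 0.089 by limma). Zfp521, the paralog of Zfp423, was low throughout, at 0.451, 0.379 and 0.997 RPM in S/L, 2.79, 3.74 and 3.32 in MEKi/L, 3.24, 2.38 and 2.77 in GSK3i/L, 3.81, 2.29 and 2.91 in 2i/L and 0.836 and 0.705 at 24 days. It rose in all 3 serum-free media at 8 days, opposite to Zfp423: 2.41 ± 0.37 (SE, adjusted p = 9.0e-05) in 2i/L, 2.56 ± 0.37 (SE, adjusted p = 0.00011) in MEKi/L and 2.32 ± 0.37 (SE, adjusted p = 0.00041) in GSK3i/L by limma.

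Zfp217, a partner of CoREST that also restrains RNA methylation in stem cells, read 33.2, 45.4 and 52.6 RPM in S/L, 129, 89.6 and 97.7 in MEKi/L, 74.4, 63.7 and 47.2 in GSK3i/L and 107, 124 and 121 in 2i/L. The MEKi/L and 2i/L ranges overlapped and both lay above S/L, by 1.28 ± 0.21 (SE, adjusted p = 0.00036) and 1.45 ± 0.21 (SE, adjusted p = 6.5e-05) with limma. Zfp592 and Zfp687, which share a complex with ZMYND8, also rose in 2i/L. Zfp592 went from 14.3, 16.6 and 18.7 to 45.4, 45.4 and 38.6 RPM, 1.39 ± 0.24 (SE, adjusted p = 0.00022) by limma. Zfp687 went from 22.2, 27.8 and 28.4 to 74.9, 80.9 and 68.8 RPM, 1.52 ± 0.23 (SE, adjusted p = 9.6e-05) by limma.

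Zfp536, a repressor of neural differentiation, read 1.62, 0.838 and 1.57 RPM in S/L, 2.54, 3.89 and 2.94 in MEKi/L, 0.734, 0.660 and 1.97 in GSK3i/L and 4.27, 5.53 and 5.82 in 2i/L. 2i/L was above every other library, by 2.00 ± 0.42 (SE, adjusted p = 0.00096) against S/L and 2.39 ± 0.42 (SE, adjusted p = 0.00094) against GSK3i/L with limma. Summed neural markers lay between 110.5 and 151.8 RPM in S/L, 118.7 and 227.3 in MEKi/L, 39.43 and 62.41 in GSK3i/L and 83.38 and 110.2 in 2i/L, with Neurog2 at 0 throughout, and 1 of 4 tested was higher and 2 lower in 2i/L than in S/L by limma. Their part in the result was not tested. Zfp296, a NuRD-binding reprogramming factor, rose in 2i/L from 25.96, 19.9 and 41.6 to 72.5, 59.99 and 76.8 RPM, 1.32 ± 0.37 (SE, adjusted p = 0.0072) by limma. Zfp281, which works with Nanog, differed by 0.07 ± 0.18 (SE, adjusted p = 0.76) and did not pass, nor did the G9a/GLP partners Zfp462, at 0.79 ± 0.33 (SE, adjusted p = 0.051), and Zfp644, at 0.15 ± 0.18 (SE, adjusted p = 0.48), by limma. Zfp462 passed with no filter on low values or on log2(RPM + 0.5) (adjusted p = 0.034 and 0.049 by limma). Zfp207, the spindle protein BuGZ, fell from 362, 554 and 507 to 307, 279.5 and 222 RPM in 2i/L, -0.80 ± 0.23 (SE, adjusted p = 0.0072) by limma.

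Zfp503 (ENSMUSG00000039081, chr14:21983962-21989601 in GRCm38, minus strand), which belongs to a family of transcriptional corepressors, was almost confined to GSK3i/L at 8 days among these libraries, where it read 5.02, 6.27 and 2.77 RPM. In the other 11 libraries it lay between 0 and 0.215 RPM, at or near the 3 reads (0.190 to 0.284 RPM) that a count of 0 allows in the plain columns. Because it passed the threshold only through that group, these levels are a description. Summed markers of fibroblasts and mesenchyme stood between 98.6 and 240.8 RPM in the same 3 libraries and between 6.07 and 16.03 RPM in the others, where 2 to 5 of the 9 markers were at 0 in every library of a group. 6 of the 8 tested markers were higher in GSK3i/L than in S/L by limma. Their part in the Zfp503 level was not tested.

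Of 22 tested members listed for RNA binding or general cellular roles, 13 were higher (59.1%) and 2 lower (9.09%) in 2i/L than in S/L, against 39.1% and 24.4% of all tested genes, with medians of 0.63 and 0.28. Zfp292 read 37.1, 33.7 and 33.7 RPM in S/L, 131, 72.1 and 74.7 in MEKi/L, 95.8, 52.95 and 50.3 in GSK3i/L, 116, 123 and 126 in 2i/L and 25.4 and 31.5 at 24 days. It was above S/L in all 9 serum-free libraries at 8 days and below in both at 24 days, with 1.80 ± 0.25 (SE, adjusted p = 4.7e-05) in 2i/L and 1.36 ± 0.25 (SE, adjusted p = 0.00089) in MEKi/L by limma. Zfp148 (ZBP-89), which binds GC-rich promoters, read 26.5, 24.9 and 29.6 RPM in S/L, 54.4, 50.1 and 52.8 in MEKi/L, 42.8, 33.3 and 42.7 in GSK3i/L and 57.9, 64.6 and 67.2 in 2i/L. The 4 groups did not overlap, and 2i/L was 1.23 ± 0.15 (SE, adjusted p = 1.4e-05) above S/L by limma. The RNA-binding protein gene Zfp106 rose from 144, 235 and 217 to 459.9, 556 and 585 RPM, 1.45 ± 0.31 (SE, adjusted p = 0.0012) by limma, and the ubiquitin ligase gene Zfp91 rose by 0.85 ± 0.17 (SE, adjusted p = 0.00071). The 2 that fell were Zfp593, a ribosome assembly factor, at -0.95 ± 0.23 (SE, adjusted p = 0.0029), and Zfp277, at -1.23 ± 0.28 (SE, adjusted p = 0.0019), by limma.

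The machinery that KRAB proteins recruit was read from a list of 30 genes, of which 29 were tested in 30 rows. In 2i/L against S/L 16 of these rows were higher (53.3%) and 4 lower (13.3%), against 39.1% and 24.4% of all tested genes, with medians of 0.62 and 0.28. Setdb1, the H3K9 methyltransferase of the complex, averaged 83.5 ± 4.81 RPM (SD, n = 3) in S/L and 211 ± 23.02 RPM (SD, n = 3) in 2i/L, 1.33 ± 0.20 (SE, adjusted p = 7.8e-05) by limma. Trim28, the scaffold itself, averaged 1430 ± 268 RPM (SD, n = 3) and 2237 ± 277 RPM (SD, n = 3) and did not pass, at 0.65 ± 0.29 (SE, adjusted p = 0.064), but passed with quantile normalization or no filter (adjusted p = 0.019 and 0.033 by limma). The maintenance methyltransferase Dnmt1 rose by 1.71 ± 0.35 (SE, adjusted p = 0.00087) and the NuRD remodelers Chd4 and Chd3 by 1.35 ± 0.45 (SE, adjusted p = 0.018) and 1.66 ± 0.32 (SE, adjusted p = 0.00062), while the deacetylase Hdac1 fell by 0.81 ± 0.23 (SE, adjusted p = 0.0074), by limma. The lower count was 2 without the first or the third S/L or the first or second 2i/L library, and the Chd4 call was lost without the first S/L or second 2i/L library (adjusted p = 0.072 and 0.0519 by limma).

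The length score changed many of these calls, as it did over all tested genes, where the shares called went from 39.1% higher and 24.4% lower to 19.3% and 12.3%. With the score added to the fit of 2i/L against S/L, the co-repressor list had 4 higher and 1 lower, the imprint and retroelement list 1 and 1, the developmental list 6 and 5, and the list of other roles 3 and 0, by limma. Of the genes described so far, Zfp423, Zfp30, Zfp600, Zfp516, Zfp521, Zfp217, Zfp687, Zfp536, Zfp292, Zfp148 and Setdb1 kept their call in that comparison. Zfp867, Zfp382, Zfp445, Zfp568, Zfp809, Zfp932, Zfp930, Zfp592, Zfp296, Zfp207, Zfp467, Zfp106, Zfp91, Zfp593, Zfp277, Dnmt1, Chd3, Chd4 and Hdac1 lost it, with adjusted p between 0.066 (Zfp592) and 0.93 (Zfp930) by limma. Zfp281 and Zfp462, which did not pass without the score, then passed in the opposite direction, at -0.50 and -0.58 (adjusted p = 0.033 and 0.041 by limma). The score separates 2i/L from S/L without overlap, so the medium and the score cannot be told apart in that comparison.

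Counted over all members, no medium against S/L moved a larger share than it moved of all genes. Between 2i/L and S/L, 105 of 312 members (33.7%) were higher and 54 (17.3%) lower, against 39.1% and 24.4% of all tested genes. The members' median log2 fold change was 0.22 and that of all tested genes 0.28. Between MEKi/L and S/L, 63 were higher and 35 lower (26.1% and 14.7% of all genes, medians 0.04 and 0.17). Between GSK3i/L and S/L, 29 were higher and 23 lower (16.8% and 14.4% of all genes, medians 0.04 and 0.06). These 3 comparisons share the S/L libraries. Summed trophoblast markers moved with 2i/L: they lay between 109.1 and 112.6 RPM in 2i/L, 49.56 and 64.45 in S/L, 69.56 and 97.54 in MEKi/L and 37.27 and 52.39 in GSK3i/L at 8 days. Of 5 tested, 3 were higher and none lower in 2i/L than in S/L by limma, Elf5 was at 0 in every S/L and 8-day GSK3i/L library and Cdx2 in every MEKi/L library, and their part in the members' changes was not tested. With each column centred on its median the first 2 splits turned to 66 higher and 81 lower, and to 41 and 49, and with quantile normalization to 83 and 67, and to 46 and 48. Over all tested genes centred columns gave 27.5% higher and 31.96% lower in 2i/L, and 20.1% and 19.7% in MEKi/L. Quantile normalization gave 32.4% and 28.2% in 2i/L, and 21.9% and 18.5% in MEKi/L. The balance of calls thus depends on how the columns are scaled, but all genes turned to more lower than higher only in 2i/L with centred columns. Without the first MEKi/L library the MEKi/L count was 38 higher and 19 lower, against 18.3% and 10.1% of all tested genes. Without the first S/L library 16 were lower, against 9.55% of all tested genes. The GSK3i/L counts changed with single libraries, as did those of all tested genes. They were 12 higher and 9 lower without the first GSK3i/L library, against 10.9% and 8.87% of all genes. The higher count was 16 without the second S/L library and 18 without the first, against 13.3% and 10.8% of all genes. The lower members in GSK3i/L numbered 67 without the third GSK3i/L library and 9 without the second, against 21.0% and 8.79% of all genes. They numbered 6 without the first S/L library and 12 without the third, against 7.88% and 10.4% of all genes.

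**Figure D2:**
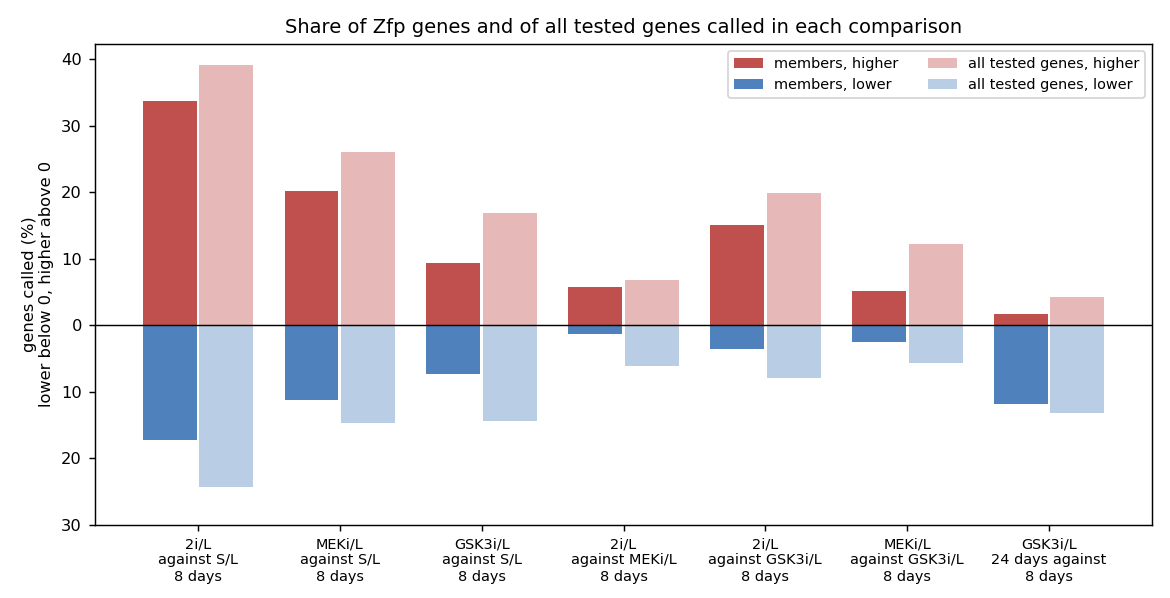
Percent of the 312 Zfp rows (dark bars) and of all 14980 tested rows (pale bars) with adjusted p under 0.05 in each of the 7 comparisons, higher above 0 and lower below 0. Against S/L the dark bars are shorter than the pale ones in both directions, and in GSK3i/L at 24 against 8 days the lower bars are the longer ones.

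The inhibitor media were also set against each other. 2i/L against MEKi/L had 18 members higher (5.77%) and 4 lower (1.28%), against 6.81% and 6.11% of all tested genes, with medians of 0.10 and 0.07. Centred columns gave 9 and 9, against 4.90% and 7.90% of all genes, and quantile normalization 13 and 7, against 5.70% and 4.87%. 2i/L against GSK3i/L had 47 higher (15.1%) and 11 lower (3.53%), against 19.8% and 8.02% of all tested genes, with medians of 0.19 and 0.18. Centred columns gave 18 and 24, against 9.59% and 15.7% of all genes, and quantile normalization 19 and 13, against 11.6% and 9.65%. MEKi/L against GSK3i/L had 16 higher (5.13%) and 8 lower (2.56%), against 12.2% and 5.65% of all tested genes, with medians of 0.07 and 0.09. Centred columns gave 10 and 22, against 9.40% and 9.35% of all genes, and quantile normalization 11 and 24, against 9.97% and 8.89%. These counts also turned on single libraries, as did those of all tested genes. Without the first MEKi/L library 33 members were higher and 10 lower in 2i/L than in MEKi/L, against 15.5% and 11.0% of all genes. Leaving out any other of those 6 libraries left 3 to 8 higher and 3 or 4 lower. The shares of all genes were then 2.86% to 4.19% higher and 3.28% to 4.09% lower. Without the first GSK3i/L library 63 were higher and 24 lower in 2i/L than in GSK3i/L, against 24.7% and 13.6% of all genes. There the higher count was 23 without the second GSK3i/L library and 27, 23 and 24 without each 2i/L library. The higher shares of all genes were 15.7%, and 13.9%, 11.7% and 12.1%. The lower count was 5 without the third GSK3i/L library and 7 without the first or the second 2i/L library. The lower shares of all genes were 5.93%, and 5.44% and 5.53%. In MEKi/L against GSK3i/L 8 were higher without the second GSK3i/L or the third MEKi/L library, against 10.1% and 9.99% of all genes. The higher count was 10 without the first MEKi/L and 25 without the third GSK3i/L library, against 9.48% and 12.3%. Without the third MEKi/L library 5 were lower, against 3.7% of all genes.

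Zfp229 (ENSMUSG00000061544, chr17:21733724-21748968 in GRCm38, plus strand) stood apart between media with and without MEK inhibitor. It read 45.1, 45.3 and 43.9 RPM in S/L, 111, 129 and 131 in MEKi/L, 31.5, 31.3 and 46.2 in GSK3i/L, 76.4, 91.6 and 92.7 in 2i/L and 27.9 and 27.6 at 24 days. All 6 libraries with MEK inhibitor were above the other 8. MEKi/L exceeded S/L by 1.46 ± 0.17 (SE, adjusted p = 1.6e-05) and GSK3i/L by 1.79 ± 0.17 (SE, adjusted p = 6.0e-06), and 2i/L exceeded GSK3i/L by 1.28 ± 0.17 (SE, adjusted p = 9.1e-05), by limma. Zfp948 was lowest in 2i/L, at 2.52, 2.69 and 2.84 RPM against 6.22, 7.70 and 8.24 in MEKi/L and 8.17, 6.27 and 10.4 in GSK3i/L, -1.45 ± 0.29 (SE, adjusted p = 0.0047) and -1.60 ± 0.29 (SE, adjusted p = 0.0012) by limma. Zfp524 was higher in 2i/L, at 3.96, 4.03 and 3.37 RPM against 1.84, 1.44 and 1.80 in MEKi/L, 1.17 ± 0.26 (SE, adjusted p = 0.0093) by limma. Zfp677 read 0.127, 0.216 and 0.0948 RPM in MEKi/L and 0.152, 0.158 and 0 in 2i/L, at or under 3 reads, against 1.60, 1.82 and 3.29 in GSK3i/L at 8 days and 3.72 and 2.29 at 24 days.

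Members that passed in pairs of comparisons with no library in common can be set side by side. Of 63 members higher in MEKi/L than in S/L and 47 higher in 2i/L than in GSK3i/L, 28 were in both, 44.4% of the first and 59.6% of the second; over all tested genes these shares were 52.1% and 68.7%. Of the lower members, 35 and 11, 8 were in both, 22.9% and 72.7%, against 30% and 54.9% over all genes: Zfp618, Zfp629, Zfp423, Zfp277, Zfp72, Zfp677, Zfp54 and Zfp52. For GSK3 inhibition, GSK3i/L against S/L and 2i/L against MEKi/L shared 2 higher members, Zfp64 and Zfp30, of 29 and 18, 6.90% and 11.1%, against 23.3% and 57.5% over all tested genes. They shared 2 lower members of 23 and 4, 8.70% and 50%, against 19.3% and 45.3% over all genes: Zfp600 and Zfp534, which are close copies on chromosome 4. MEKi/L against S/L and 2i/L against GSK3i/L both set plain columns against columns of the common distribution, so they share any difference between these kinds. The other pair compares columns of the same kind. With centred columns MEKi/L against S/L had 41 higher and 49 lower, against 20.1% and 19.7% of all tested genes. 2i/L against GSK3i/L had 18 and 24, against 9.59% and 15.7%. GSK3i/L against S/L then had 35 and 22, against 17.9% and 13.8%, and 2i/L against MEKi/L 9 and 9, against 4.90% and 7.90%. The part of column kind in these overlaps was not tested.

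From 8 to 24 days in GSK3i/L, 5 members rose and 37 fell, against 4.3% and 13.2% of all tested genes, with medians of -0.23 and -0.19. The 2 groups differ in column kind and the later one has 2 libraries. The lower count was 19 with quantile normalization, 20 with no filter and 10 with the length score, where 7.42%, 5.54% and 3.66% of all genes were lower. Without the third 8-day library the counts were 35 and 59, against 14.6% and 24.7% of all genes. Without the first 8-day library they were 0 and 6, against 0.641% and 3.27%. Without the second 8-day library 3 were higher, against 2.38% of all genes. Omitting a 24-day library left the members' median at -0.25 (the second) or -0.19 (the third), against -0.12 and -0.25 over all genes. Zfp819, a repressor of endogenous retroviruses, kept its call under each omission: it read 25.01, 13.8 and 21.04 RPM at 8 days and 5.01 and 4.84 at 24 days, -1.97 ± 0.30 (SE, adjusted p = 0.0014) by limma, and the groups did not overlap. Zfp628 fell likewise from 15.2, 10.1 and 7.76 to 3.19 and 3.08 RPM, -1.76 ± 0.30 (SE, adjusted p = 0.0033) by limma. Zfp931 rose from 4.49, 17.6 and 22.3 to 57.8 and 63.9 RPM, 2.33 ± 0.65 (SE, adjusted p = 0.03) by limma, and lost its call without the first 8-day library or either 24-day library (adjusted p = 0.097, 0.15 and 0.12 by limma). Zfp74 fell by 1.39 ± 0.26 (SE, adjusted p = 0.0064) and lost its call without the second 24-day library (adjusted p = 0.087 by limma). Of the listed co-repressor genes 7 of 30 rows (23.3%) fell and none rose (median -0.64), among them Trim28 at -1.05 ± 0.33 (SE, adjusted p = 0.043), Setdb1 at -0.71 ± 0.22 (SE, adjusted p = 0.044) and Chd4 at -1.75 ± 0.51 (SE, adjusted p = 0.034) by limma. All 3 of these calls were lost without any 1 of the first or second 8-day or either 24-day library, where the list had 1, 4, 1 and 0 lower, against 17 without the third 8-day library.

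By position, 144 members fell into 18 clusters of at least 4 members with gaps of no more than 500 kb, on 7 chromosomes, and 168 lay outside. Chromosome 7 holds 9 of the clusters with 67 members, the largest of which, at 29.8 to 30.2 Mb, has 14 members and no other tested gene. Chromosome 17 has clusters of 20 and 11 members, at 21.0 to 23.6 and 32.8 to 33.6 Mb, and chromosome 13 has 1 of 15 at 66.7 to 67.8 Mb. Positions are those of the deposited table in GRCm38. Genes of a cluster are often close copies of each other, so their values are not independent and reads may have been split or lost between them.

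In 2i/L against S/L, 30 of 67 members in the clusters of chromosome 7 (44.8%) were higher and 4 (5.97%) lower, against 39.1% and 24.4% of all tested genes. Their higher share was near that of all genes. Their median log2 fold change was 0.50, while all members in clusters had 41 higher and 27 lower and a median of 0.08. The sets by chromosome were chosen after the values were seen. In the 14-member cluster 7 rose and 1 fell, with Zfp30, Zfp84, Zfp382, Zfp74 and Zfp568 among those that rose and Zfp566 the one that fell. Zfp84 changed by 1.66 ± 0.24 (SE, adjusted p = 5.3e-05) by limma. In the cluster at 24.1 to 24.5 Mb 6 of 9 rose and none fell, with a median of 0.84, and in that at 6.1 to 6.4 Mb 4 of 6 rose, with a median of 0.69. Zfp551, from the cluster at 12.4 to 13 Mb, showed the largest rise of all members, from 0.554, 0.559 and 0.155 RPM in S/L to 3.12, 2.85 and 3.17 in 2i/L, 3.07 ± 0.51 (SE, adjusted p = 0.00018) by limma. The cluster at 43.2 to 43.6 Mb went against the rest of the chromosome, with no member higher and 1 lower, Zfp936, which fell from 61.1, 38.3 and 38.9 to 14.7, 12.7 and 11.5 RPM, -1.80 ± 0.43 (SE, adjusted p = 0.0026) by limma, a call lost with the length score (adjusted p = 0.37).

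In the 5 clusters of chromosomes 8, 13 and 17, 4 of 55 members (7.27%) were higher and 17 (30.9%) lower in the same comparison, with a median of -0.46. Their lower share was near the 24.4% of all tested genes and their higher share below the 39.1%. In the 20-member cluster of chromosome 17, 7 fell and 3 rose. Zfp54 fell furthest there, from 34.97, 15.3 and 15.1 RPM in S/L to 2.74, 1.03 and 2.31 in 2i/L, -3.43 ± 0.44 (SE, adjusted p = 2.3e-05) by limma, while Zfp229 of the same cluster rose by 0.95 ± 0.17 (SE, adjusted p = 0.00026). In the chromosome 13 cluster 4 of 15 (26.7%) fell and none rose (median -0.30), and of the 14 other tested genes in that span 2 rose and 4 fell (median -0.25). The 4 clusters of chromosomes 2, 6 and 9 are in neither set, and their medians were -0.74 (4 members, chromosome 2), 0.83 (9 members, chromosome 6), and -0.20 and -0.37 (5 and 4 members, chromosome 9). With the length score added, the chromosome 2 median turned to 0.29, that of chromosome 6 was 0.32, and the pair of chromosome 9 stood at 0.18 and -0.12. Members outside clusters had 64 higher and 27 lower of 168, with a median of 0.36. Outside clusters too, some members fell far: Zfp958, on chromosome 8, read 136, 123 and 105 RPM in S/L and 12.3, 14.5 and 15.5 in 2i/L, -3.10 ± 0.55 (SE, adjusted p = 0.00028) by limma, and -0.73 (adjusted p = 0.036) with the length score added.

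**Figure D3:**
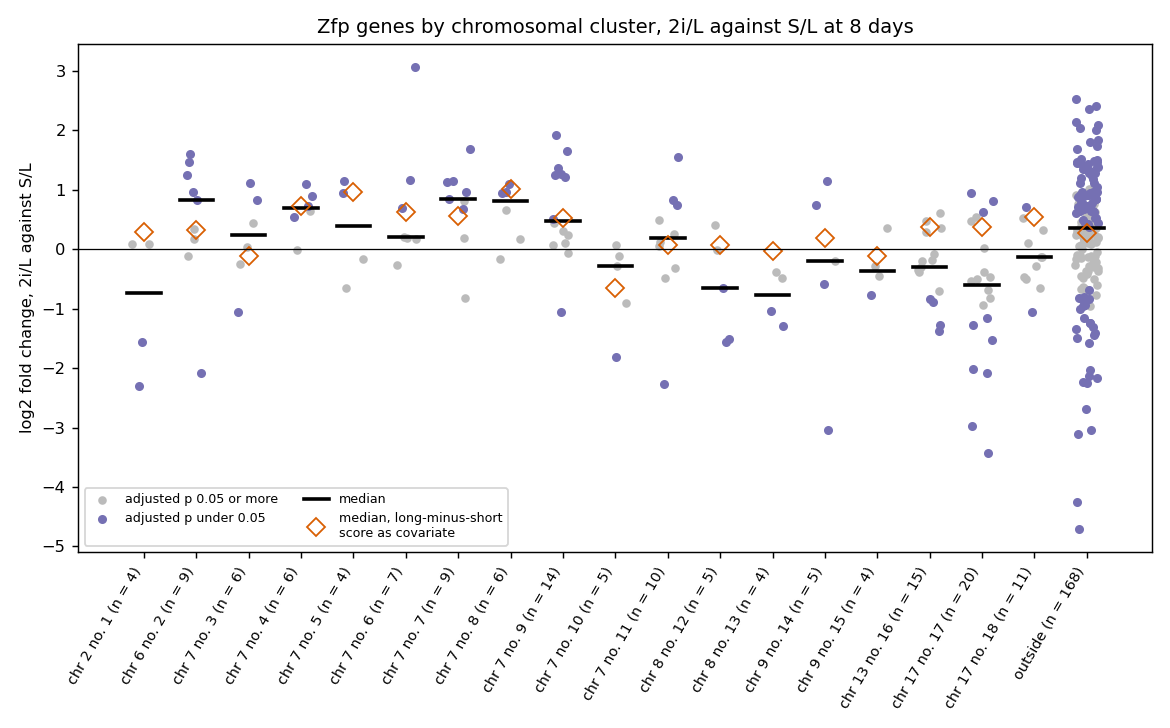
Log2 fold change of 2i/L against S/L at 8 days for each Zfp member, grouped by chromosomal cluster (n members each) and outside clusters, with coloured points for adjusted p under 0.05, a bar at the median and an open diamond at the median with the length score added to the fit. Most chromosome 7 clusters have medians above 0 under both fits, while those of the chromosome 8, 13 and 17 clusters lie below 0 (-0.77 to -0.13) without the score and between -0.04 and 0.55 with it.

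The direction of the chromosome 8, 13 and 17 set depended on the length score. With the score as a covariate that set had 10 members higher (18.2%) and 3 lower (5.45%) and a median of 0.34. The chromosome 7 set had 14 higher (20.9%) and 2 lower (2.99%) and a median of 0.43, against 19.3% and 12.3% of all tested genes. With centred columns the medians were -0.77 and 0.19, and leaving out 1 library at a time gave -0.55 to -0.32 and 0.40 to 0.64. By library, the median deviation of the chromosome 8, 13 and 17 set from each gene's own mean was -0.37 in the first MEKi/L library and 0.07 and 0.11 in the others. It was -0.48, -0.31 and 0.58 in the 3 GSK3i/L libraries at 8 days, so replicates of 1 medium differed by more than S/L (0.42, 0.14 and 0.15) differed from 2i/L (-0.27, -0.18 and -0.17). The chromosome 7 set stood at -0.22, -0.23 and -0.01 in S/L, 0.07, 0.10 and 0.10 in MEKi/L, 0.28, 0.37 and 0.23 in 2i/L and -0.38 and -0.26 at 24 days, and spread from -0.18 to 0.28 in GSK3i/L at 8 days.

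**Figure D4:**
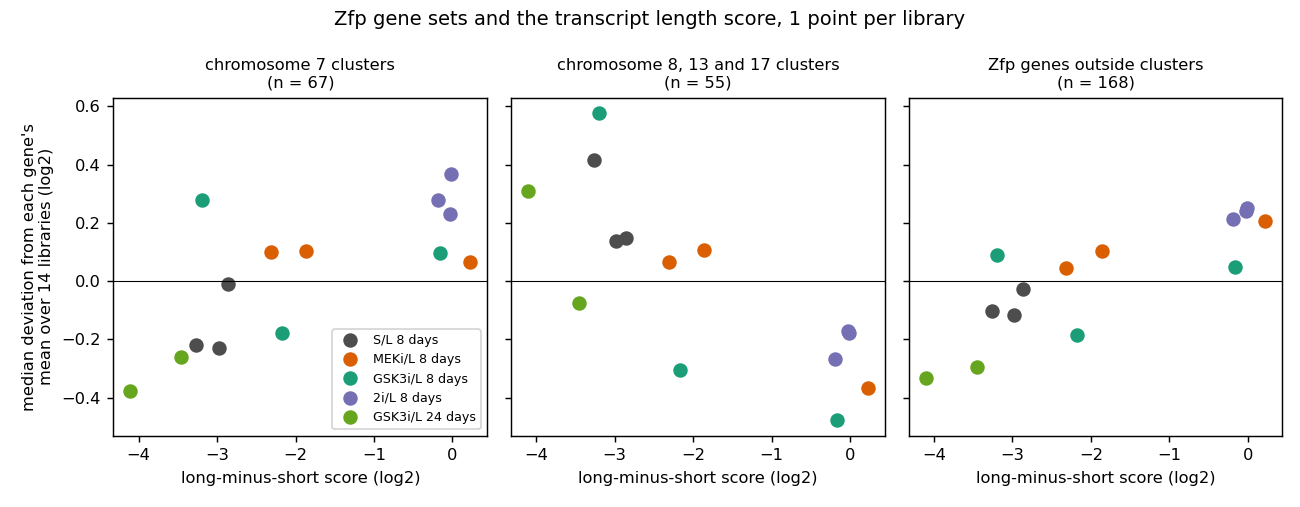
Median deviation (log2) of 3 sets of Zfp members from each gene's mean over 14 libraries, against the score of 40 long minus 40 short transcripts (log2), with 1 point per library coloured by group. The chromosome 8, 13 and 17 set is lowest in the 5 libraries with scores between -0.19 and 0.23 and in the second GSK3i/L library, and the chromosome 7 set stands at 0.23 or more in the 2i/L libraries and the third GSK3i/L library.

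In MEKi/L against S/L the chromosome 7 set had 18 higher (26.9%) and 5 lower (7.46%), median 0.14, and the chromosome 8, 13 and 17 set 3 higher (5.45%) and 7 lower (12.7%), median -0.27, against 26.1% and 14.7% of all tested genes. In GSK3i/L against S/L the chromosome 7 set had 7 higher (10.4%) and 3 lower (4.48%), median 0.21, and the other set 1 higher (1.82%) and 7 lower (12.7%), median -0.25, against 16.8% and 14.4% of all genes. The 7 lower of the chromosome 8, 13 and 17 set rested on single libraries. They numbered 25 without the third GSK3i/L library (median -0.55), 2 without the first or the second GSK3i/L or the third S/L library, and 1 without the first S/L library. Of all tested genes 21.0% were lower without the third GSK3i/L library. That share was 8.87% without the first and 8.79% without the second GSK3i/L library. It was 10.4% without the third and 7.88% without the first S/L library. From 8 to 24 days in GSK3i/L 1 member of the chromosome 7 set rose and 11 (16.4%) fell, against 13.2% of all tested genes, with a median of -0.47. The 11 became 3 without the first 8-day library, where 3.27% of all genes fell. The median of the chromosome 7 set was -0.39 without the second and -0.52 without the third 24-day library. No member of the chromosome 8, 13 and 17 set passed in that comparison by limma. Its median of 0.17 changed sign, to -0.03 without the first 8-day library, -0.04 without the second 24-day library and -0.40 with the length score.

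A RefSeq promoter window of 300 bases, from 250 before to 50 after the start, was found for 252 of the 311 genes. Of these, 201 had 1 window. For a gene with several, the window with the most CpG was taken, which raises the counts of such genes. The median CpG count of the windows taken was 16 for members and 22 over 10130 tested genes. It was 14 in the chromosome 7 clusters, 10 in the chromosome 8, 13 and 17 clusters and 18 outside. In 2i/L against S/L, the 65 members with fewer than 10 CpG had 14 higher (21.5%) and 17 lower (26.2%), with a median of -0.12, against 34.6%, 26.2% and 0.19 over all tested genes in that bin. The 35 with 30 or more had 15 higher (42.9%) and 4 lower (11.4%), with a median of 0.45, against 46.2%, 19.5% and 0.45. The NRF1 motif (GCGCA followed directly by TGCGC) was in 4.37% of members' windows and 2.12% of those of tested genes, the YY1 motif CCATNTT in 22.2% and 14.5%, and the ETS motif CCGGAAG in 21.0% and 17.5%, on either strand. The TCF/LEF motif CTTTGAT was in 4.37% and 2.28%, the CREB/ATF motif TGACGTCA in 3.17% and 3.15%, and the GC box GGGGCGGGG in 12.3% and 23.0%. Among the 4 genes printed above, Zfp30 holds the NRF1 letters across its start, and its printed run ends within them. The printed run of Zfp867 holds the GC box letters in full. No motif contains another, and a match is a description of these letters.

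Over the 14 libraries, the mean log2 level of the members lay between 3.12 and 3.63. The tested genes that are no members whose levels tracked that mean most closely were C030048B08Rik (r = 0.917), Ing5 (r = 0.902), Rnf168 (r = 0.881), B3galtl (r = 0.880) and Gm12743 (r = 0.871), with libraries of a medium sharing their depth and scaling. These are given as likeness alone, with no test.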

How the data were processed

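RNA-seq of 14 libraries in 5 groups was used, from 1 table of log2 values that the authors deposited. Per the submitters' processing notes, Trim Galore 0.6.5 and HISAT2 were used with GRCm38; which gene models, strand setting and counting options gave the values is not stated in those notes. The deposited log2 RPM values of 8 libraries are whole reads for at least 99.961% of genes (within 0.02 read), with 0 reads entered at 0.9 read, so 3 reads are 0.190 to 0.284 RPM. The other 6 columns follow 1 distribution (differences up to 0.0793 log2 above 2 RPM), so their depth is unknown. RPM was computed as 2 to the deposited value, with the lowest value of each column set to 0. In the 6 columns of the common distribution that value was taken as no read, which cannot be checked there. Intervals of depth cover counting error only.

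limma 3.58.1 in R 4.3.3 was fitted to the log2 values of all 14 libraries with group as the only term (trended, robust variances), over 14980 rows with 0.5 RPM or more in at least 3 libraries. p-values were adjusted by Benjamini-Hochberg, and a gene was called at an adjusted p under 0.05 with no minimum fold. The fit was tested on simulated data with independent noise for each gene and library. That simulation held no shared library effects and no difference of column kind, so it cannot vouch for the calls made here. Same-numbered libraries deviated together in 1 pair of groups, MEKi/L and GSK3i/L at 8 days (r = 0.12 to 0.67), and in no other pair did every number exceed 0.1. Unlike numbers in these 2 groups ranged from r = -0.59 to 0.38. The third GSK3i/L and second MEKi/L libraries, at 0.38, thus deviated together more than the second of each, at 0.12. Clusters joined members with gaps of at most 500 kb. Promoter windows came from RefSeq (GRCm38.p6), and 307 of 312 identifiers matched a table of gene names. Named genes were, per comparison, the 8 largest rises and falls without overlap and with 2 RPM or more in the higher group, the role and co-repressor lists, the extremes of each cluster, and genes at the threshold; the promoters and the chromosome sets were chosen after values were seen. The members and lists were chosen with earlier results of these data known.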

Additional observations from a re-analysis of the deposited data

How the results depend on the processing

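Of 214 called results for single genes (a gene in a comparison), 117 kept their call with each library left out in turn and 97 lost it without at least 1 library. Calls were also lost by 41 of them with centred columns, 35 with quantile normalization, 21 with no filter, 22 with the replicate block, 90 with the length score as a covariate, 1 of 211 with a filter of 2 RPM and none with log2(RPM + 0.5). Direction turned in 5 called genes, all in 2i/L against S/L with the score: Zfp143 to -0.0019, Zfp553 to -0.034, Zfp930 to 0.044, Zfp609 to -0.26 and Chd4 to -0.54; Zfp281 and Zfp462, not called before, turned to -0.50 and -0.58. Centring moved the median of all tested genes in 2i/L against S/L from 0.28 to -0.03.

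Counts of members that moved by more than 1.5 times are given as higher or lower in the order of the comparisons. In 2i/L against S/L they were 66 higher with centred columns, against 27.5% of all tested genes. With the score they were 58 higher and 22 lower, against 19.3% and 12.3%. In MEKi/L against S/L, 41 were higher with centred columns, against 20.1% of all genes. In 2i/L against MEKi/L, 9 were higher and 9 lower with centred columns, against 4.90% and 7.90% of all genes. Quantile normalization gave 7 lower (4.87% of all genes), no filter 10 higher (3.09%) and the score 8 lower (7.40%). In 2i/L against GSK3i/L, 18 were higher and 24 lower with centred columns, against 9.59% and 15.7% of all genes. With quantile normalization 19 were higher, against 11.6%. In MEKi/L against GSK3i/L, 10 were higher and 22 lower with centred columns, against 9.40% and 9.35% of all genes. Quantile normalization gave 24 lower (8.89% of all genes), and the score 36 higher and 20 lower (20.5% and 11.3%). From 8 to 24 days, 19 were lower with quantile normalization, 20 with no filter, and 10 with the score, which left 0 higher by limma. The lower shares of all genes were 7.42%, 5.54% and 3.66%, and the higher share with the score 0.908%. An alternative chosen after seeing the data left out the first MEKi/L and first GSK3i/L libraries together: 18 were then higher in GSK3i/L against S/L, 57 higher and 20 lower in 2i/L against MEKi/L, 73 and 30 in 2i/L against GSK3i/L, and 23 lower at 24 days. In the co-repressor list, 2i/L against S/L had 4 higher and 1 lower with the score, against 19.3% and 12.3% of all genes. It had 8 lower with centred columns or quantile normalization, against 31.96% and 28.2%. From 8 to 24 days the list had 2 lower with quantile normalization, 4 with centred columns and 1 with the replicate block. With the score it had 1 lower and 1 higher. The lower shares of all genes were 7.42%, 10.3%, 6.38% and 3.66%, with 0.908% higher under the score. The cause was not tested.

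With 1 library left out at a time, higher and lower counts ranged from 90 to 106 and 44 to 52 (2i/L against S/L), 38 to 62 and 16 to 29 (MEKi/L against S/L), 12 to 36 and 6 to 67 (GSK3i/L against S/L), 3 to 33 and 3 to 10 (2i/L against MEKi/L), 23 to 63 and 5 to 24 (2i/L against GSK3i/L), 8 to 25 and 5 to 12 (MEKi/L against GSK3i/L) and 0 to 35 and 5 to 59 (24 against 8 days). For the co-repressor list they ranged from 14 to 16 and 2 to 4 in 2i/L against S/L, and from 0 to 1 and 0 to 17 at 24 against 8 days. Where 1 library of the 24-day group remained, it was assumed to vary like the other groups. Calls over all tested genes also moved with single libraries. In GSK3i/L against S/L they ranged from 10.8% to 24.0% higher and from 7.88% to 21.0% lower. In 2i/L and MEKi/L against S/L the ranges were 33.6% to 36.7% and 21.1% to 22.6%, and 18.3% to 25.1% and 9.55% to 15.0%. For 2i/L against MEKi/L they were 2.86% to 15.5% and 3.28% to 11.0%. 2i/L against GSK3i/L gave 11.7% to 24.7% and 5.44% to 13.6%, and MEKi/L against GSK3i/L 9.48% to 13.1% and 3.7% to 6.31%. From 8 to 24 days, without an 8-day library, they were 0.641% to 14.6% and 3.27% to 24.7%. With the replicate number as a block, 18 members were lower at 24 days in place of 37, and 14 higher and 8 lower in MEKi/L against GSK3i/L, the pair of groups whose numbers deviated together; no other count over all members moved by 1.5 times. Zfp459 in 2i/L against S/L, not called without the block, passed with it at 0.61 (adjusted p = 0.017 by limma). Gaps of 200 and 1000 kb gave 17 and 20 clusters. Counts of protein domains were not run. Depth limits members with few reads, such as Zfp503 and Zfp677, to a description.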
